A study of Mus musculus with 12 samples.

Results

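The 28 genes described here encode enzymes of cholesterol synthesis and proteins that control, take up, move or export cholesterol. They were listed by gene symbol, and all 28 were found among the 36144 symbols of the expression table. The list holds 18 synthesis enzymes, 4 genes of SREBP2 control (Insig1, Insig2, Srebf2 and Scap), 4 of uptake and intracellular transport (Stard4, Mylip, Npc1 and Npc2) and 2 of export (Abca1 and Abcg1). It does not cover the whole pathway. RNA came from cultured primary hepatocytes of a wild-type C57/Bl6J mouse, isolated by collagenase digestion and held overnight without serum for 16 h. Mock cells received no hormone mimic. FD cells were treated for 5 h with forskolin (10 µM), an activator of adenylate cyclase, together with the glucocorticoid dexamethasone (1 µM). FDI cells had 100 nM insulin added 1 h before the same pair, and FDMn cells had 6 µM manganese chloride during the 16 h overnight culture and then the same pair. Each group had 3 libraries, and the labels do not say whether these were separate preparations, so p-values measure the spread between these libraries, which may be technical. No group had insulin or manganese alone, and the hours of exposure to the 2 agents differed, so agent and exposure time cannot be told apart.

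As background, hepatocytes build cholesterol from acetyl-CoA through mevalonate, the isoprenoid farnesyl diphosphate, squalene and lanosterol. The transcription factor SREBP2 (Srebf2) raises most of the enzymes. In a complex with its escort protein SCAP, it is held in the endoplasmic reticulum by the retention proteins INSIG1 and INSIG2. The complex is released when membrane sterol falls. Cholesterol that enters by endocytosis leaves late endosomes through NPC2 and NPC1, STARD4 carries sterol between membranes, and ABCA1 and ABCG1 pass cholesterol to high-density lipoprotein. Insig2 has a liver transcript that insulin is known to repress, and Insig1 is itself an SREBP target.

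Between 10900 and 11161 genes per library reached 1 TPM, the deposited expression unit, which scales each gene by transcript length and each library to the same total. Mock stood apart from the rest on principal component 1 (45.3% of the variance), and on component 2 (12.4%) FD replicates 1 and 2 lay farther from the others than FD replicate 3. Of the hepatocyte markers, albumin (Alb) lay between 22527 and 32589 TPM, and Ttr, Apoa2 and Serpina1a were also abundant in every library. Hnf4a, Ass1 and Cps1 were lowest in Mock: Hnf4a ranged over 51.0 to 53.5 (Mock), 202 to 208 (FD), 174 to 180.4 (FDI), 181 to 187 (FDMn) TPM, Ass1 over 182 to 199 (Mock), 779 to 927 (FD), 777 to 818 (FDI), 633 to 657 (FDMn) and Cps1, a urea cycle enzyme, over 2.94 to 4.24 (Mock), 176 to 236 (FD), 30.4 to 38.7 (FDI), 77.9 to 83.1 (FDMn). The Kupffer cell markers Clec4f, Vsig4, Cd5l, Timd4 and Adgre1 stayed below 1 TPM in every library. Ranges of summed marker TPM over the 3 libraries were, for the 10 macrophage genes, 3.94 to 5.51 (Mock), 4.72 to 5.89 (FD), 5.47 to 7.20 (FDI), 7.06 to 8.23 (FDMn). For the 8 endothelial genes they were 25.2 to 26.3 (Mock), 24.1 to 34.6 (FD), 25.5 to 31.1 (FDI), 35.7 to 38.7 (FDMn). For the 6 cholangiocyte genes, mostly Spp1, they were 1081.8 to 1126.0 (Mock), 732 to 803 (FD), 762 to 809 (FDI), 1411.8 to 1605.7 (FDMn), with Krt7 and Epcam below 1 TPM. The other abundant members did not follow that sum: Cldn4 ranged over 162 to 196 (Mock), 55.6 to 67.6 (FD), 91.8 to 112 (FDI), 47.6 to 54.3 (FDMn) and Sox9 over 32.7 to 38.7 (Mock), 15.4 to 18.7 (FD), 36.6 to 47.7 (FDI), 24.0 to 26.2 (FDMn). The stellate sum reached at most 5.71 TPM and the lymphocyte sum stayed below 1 TPM. The part these markers have in the results below was not tested. In bulk RNA, fewer cells of a type and less RNA per cell cannot be told apart.

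Forskolin and dexamethasone split the synthesis pathway. Against Mock, 5 of the 18 synthesis genes rose and 8 fell at an adjusted p under 0.05 (limma on log2(TPM + 1), Benjamini-Hochberg adjustment over 11544 genes). Over all 28 genes, 27 passed the filter on low values, of which 7 rose and 10 fell; Mylip, 1 of the 7, passed that filter only through the treated groups and so had to differ. Of all genes tested, 41.1% were called, 11.2% upward and 29.9% downward. The median log2 change was −0.08 over the 27 genes and −0.15 over all genes. That downward shift depends on scaling: after median-of-ratios scaling the median of all genes was −0.01, and 10 of the 27 rose while 5 fell (17.8% and 17.2% of all genes). Quantile normalization gave 9 and 6 (15.4% and 18.9% of all genes). A log2 change is on the log2(TPM + 1) scale throughout, with its standard error, and understates the change of genes near 0; a fold is a ratio of mean TPM.

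The largest change was in Pmvk (phosphomevalonate kinase), which phosphorylates mevalonate phosphate. Pmvk measured 22.6, 25.6 and 21.2 TPM in the Mock libraries, 189, 198 and 183 in FD, 237, 238 and 199 in FDI and 95.2, 110.3 and 90.4 in FDMn. It rose 8.22-fold with forskolin and dexamethasone (log2 change 2.99 ± 0.09, adjusted p = 1.88e-10), and the lowest FD library lay far above the highest Mock library. Pmvk was lower with manganese (log2 change −0.94 ± 0.09, adjusted p = 5.83e-05 for FDMn against FD). With insulin the level was 225 ± 21.9 TPM (SD, n = 3) against 190.1 ± 7.91 in FD, which did not pass the test (log2 change 0.24 ± 0.09, adjusted p = 0.119). FDMn was lower than FDI (log2 change −1.18 ± 0.09, adjusted p = 8.91e-06), and the 4 groups' ranges did not overlap. The neighbouring steps moved differently. Mvk (mevalonate kinase), the step before, measured 8.19, 10.7 and 10.7 TPM in the Mock libraries, 10.0, 7.58 and 10.3 in FD, 14.1, 12.6 and 13.1 in FDI and 9.19, 12.9 and 10.2 in FDMn, and its FD and Mock libraries overlapped (adjusted p = 0.695). Mvd, which decarboxylates mevalonate diphosphate, was at 4.57 ± 0.745 TPM in Mock and 4.22 ± 0.396 in FD (adjusted p = 0.636).

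The other synthesis genes that rose with forskolin and dexamethasone act from squalene onward. Sqle (squalene epoxidase) measured 53.7, 53.3 and 54.8 TPM in the Mock libraries, 92.1, 90.5 and 90.5 in FD, 112, 113 and 122 in FDI and 95.2, 93.0 and 89.2 in FDMn. Lss (lanosterol synthase), which closes the sterol rings, measured 11.9, 17.6 and 14.8 TPM in the Mock libraries, 29.8, 37.5 and 35.7 in FD, 49.3, 47.5 and 50.1 in FDI and 29.3, 31.2 and 27.2 in FDMn. Both steps after squalene were thus low in all 3 Mock libraries, and the FDI libraries were the highest of the 4 groups. Sqle rose 1.69-fold in FD (log2 change 0.74 ± 0.05, adjusted p = 3.21e-07) and Lss 2.33-fold (log2 change 1.18 ± 0.12, adjusted p = 1.12e-05). Hsd17b7, a sterol 3-ketoreductase, measured 13.9, 8.74 and 9.62 TPM in the Mock libraries, 21.5, 18.2 and 18.3 in FD, 18.1, 24.2 and 26.0 in FDI and 21.9, 19.4 and 19.0 in FDMn. Its FD libraries all lay above its Mock libraries (log2 change 0.81 ± 0.16, adjusted p = 0.00171). Ebp, the sterol isomerase, rose 1.26-fold (log2 change 0.33 ± 0.10, adjusted p = 0.0152); this call ended when Mock replicate 1 or FD replicate 1 was dropped (adjusted p 0.0528 to 0.055), when FD and Mock were fitted without the other groups (0.0714) and with FD replicates 1 and 2 both left out (0.244).

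Of the 8 synthesis genes that fell in FD, Sc5d, Dhcr7 and Msmo1 had the largest log2 changes. Sc5d (lathosterol oxidase) had the highest Mock level of the 18 synthesis genes and measured 159, 164 and 157 TPM in the Mock libraries, 93.1, 82.6 and 86.0 in FD, 90.2, 91.5 and 111 in FDI and 108, 102 and 102 in FDMn. Dhcr7, the last reductase of one branch, measured 29.1, 34.0 and 33.4 TPM in the Mock libraries, 19.7, 17.7 and 18.1 in FD, 21.8, 21.4 and 20.8 in FDI and 18.0, 17.3 and 17.6 in FDMn. For both genes the Mock libraries stood above all 9 others. In FD against Mock, Sc5d fell by 0.87 ± 0.08 on the log2 scale (adjusted p = 3.13e-06) and Dhcr7 by 0.77 ± 0.08 (adjusted p = 6.84e-06). Msmo1 (methylsterol monooxygenase), which removes methyl groups after lanosterol, measured 125, 139 and 125 TPM in the Mock libraries, 82.1, 91.3 and 95.5 in FD, 137, 133 and 145 in FDI and 132, 136 and 127 in FDMn. It was low in the FD libraries alone (log2 change −0.53 ± 0.07, adjusted p = 6.21e-05), and the Mock, FDI and FDMn libraries overlapped.

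Smaller falls were measured for 5 other enzymes. Hmgcs1, which makes HMG-CoA, went from 78.1 ± 0.775 TPM in Mock to 60.6 ± 4.76 in FD (log2 change −0.36 ± 0.08, adjusted p = 0.00393). Fdps (farnesyl diphosphate synthase) went from 138 ± 3.28 to 119 ± 4.80 TPM (adjusted p = 0.0113), Fdft1 (squalene synthase) from 27.5 ± 0.119 to 21.4 ± 2.98 (adjusted p = 0.0182), Idi1 (isopentenyl diphosphate isomerase) from 33.7 ± 2.56 to 28.4 ± 1.54 (adjusted p = 0.0295) and Nsdhl, a sterol dehydrogenase, from 25.4 ± 1.50 to 21.3 ± 0.568 (adjusted p = 0.0277). These 5 calls were lost under median-of-ratios scaling, with adjusted p of 0.0755 for Hmgcs1, 0.541 for Fdps, 0.156 for Fdft1, 0.46 for Idi1 and 0.417 for Nsdhl. All 5 changes stayed below 0. Quantile normalization also ended the calls of Fdps (adjusted p = 0.0543), Fdft1 (0.107), Idi1 (0.302) and Nsdhl (0.314). Fitting FD and Mock without the other groups ended the Idi1 (0.075) and Nsdhl (0.0573) calls. Leaving out 1 library also ended the Fdft1 call (FD replicate 2, adjusted p = 0.0712), the Idi1 call (Mock replicate 1 or 2, FD replicate 2 or 3; adjusted p from 0.0593 to 0.108) and the Nsdhl call (Mock replicate 1 or 3, FD replicate 1 or 2; adjusted p from 0.0655 to 0.0876). With FD replicates 1 and 2 both left out, the Fdps, Fdft1, Idi1 and Nsdhl calls ended (adjusted p of 0.188, 0.389, 0.13 and 0.227). Acat2 (the cytosolic thiolase that opens the pathway), Cyp51 (lanosterol demethylase) and Tm7sf2 did not pass, at 15.6 ± 0.927 against 16.3 ± 3.08, 59.4 ± 3.67 against 62.7 ± 1.11 and 25.7 ± 0.663 against 23.0 ± 1.15 TPM in FD and Mock. Tm7sf2, a sterol reductase, passed under median-of-ratios scaling (0.31, adjusted p = 0.0044).

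**Figure D1:**
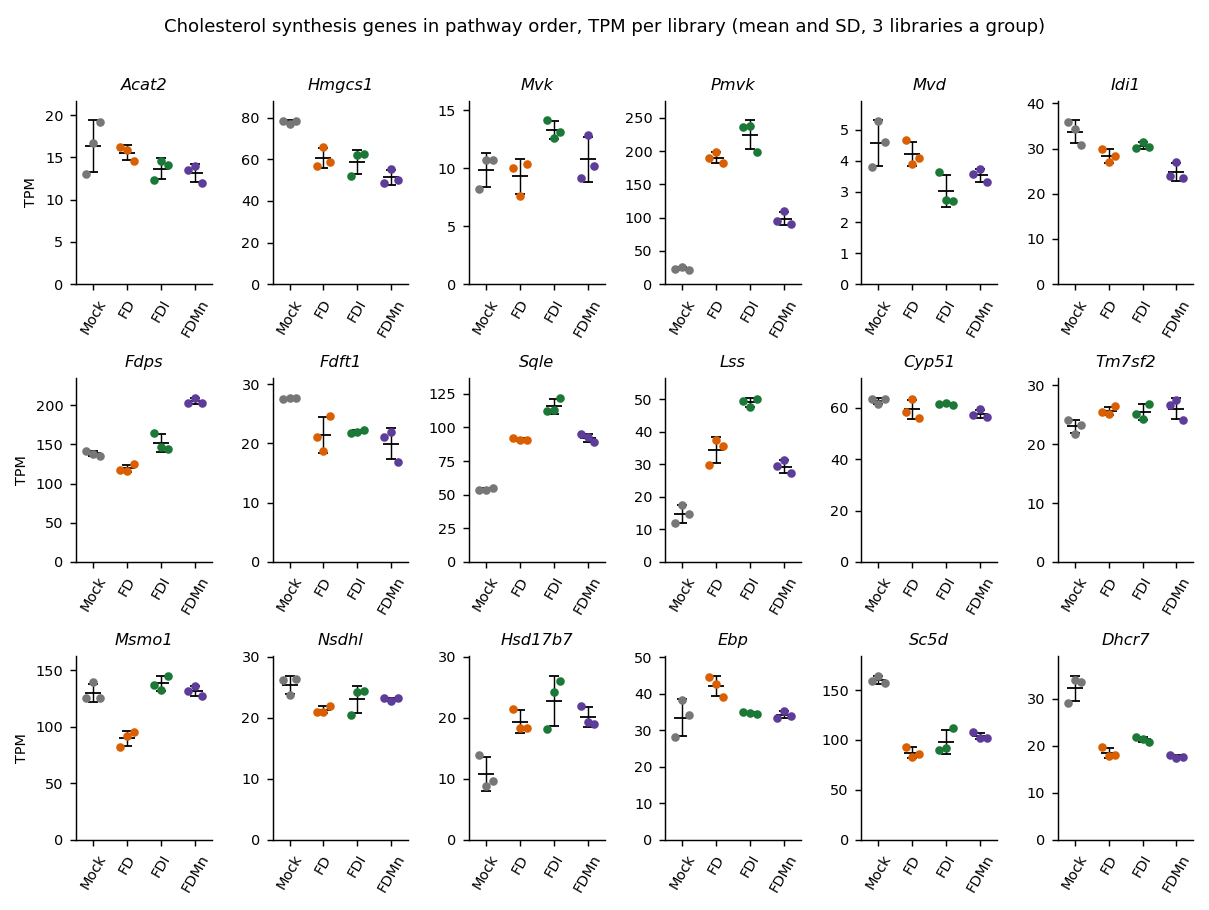
Deposited TPM (vertical axes, each from 0) of the 18 synthesis genes in Mock, FD, FDI and FDMn; points are the 3 libraries of a group, bars the mean and SD. Pmvk, Sqle, Lss and Hsd17b7 are higher in all FD libraries than in all Mock libraries, Sc5d and Dhcr7 are lower, and Msmo1 is lowest in FD.

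Promoter sequences are shown for 4 of these enzymes because they sit in 1 pathway and moved in opposite directions: Pmvk and Lss rose in FD, Msmo1 and Hmgcs1 fell. The Hmgcs1 call was lost under median-of-ratios scaling (adjusted p = 0.0755), and Sc5d and Dhcr7, not shown, fell more. The sequences are RefSeq windows on GRCm38.p6, 5′ to 3′ on the gene's strand, from 250 bases before to 50 after an annotated start. Pmvk has 2 annotated starts. The TPM table gives 1 value per gene and does not separate them. Capitals mark CCAAT, the box bound by the factor NF-Y, and TCACNCCAC, a sterol regulatory element sequence, on either strand.
Pmvk, chr3:89454291-89454590, + strand: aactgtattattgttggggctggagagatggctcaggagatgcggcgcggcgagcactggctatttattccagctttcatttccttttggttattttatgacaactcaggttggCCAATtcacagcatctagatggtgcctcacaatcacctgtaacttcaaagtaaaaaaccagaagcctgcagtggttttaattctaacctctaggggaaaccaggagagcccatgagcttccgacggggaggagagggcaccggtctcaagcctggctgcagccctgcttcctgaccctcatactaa
Pmvk, chr3:89459321-89459620, + strand: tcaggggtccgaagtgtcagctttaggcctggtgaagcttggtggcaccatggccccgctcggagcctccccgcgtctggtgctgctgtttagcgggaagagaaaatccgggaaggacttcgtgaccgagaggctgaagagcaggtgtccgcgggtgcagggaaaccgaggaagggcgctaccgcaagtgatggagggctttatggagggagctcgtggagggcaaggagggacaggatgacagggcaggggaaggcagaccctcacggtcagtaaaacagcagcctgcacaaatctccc
Lss, chr10:76531355-76531654, + strand: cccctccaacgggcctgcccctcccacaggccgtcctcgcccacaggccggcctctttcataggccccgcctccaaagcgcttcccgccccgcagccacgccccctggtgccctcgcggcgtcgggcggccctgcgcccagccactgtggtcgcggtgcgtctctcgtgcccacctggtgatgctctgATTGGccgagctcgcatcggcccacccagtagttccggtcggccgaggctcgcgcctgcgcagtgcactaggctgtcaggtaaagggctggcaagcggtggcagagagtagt
Hmgcs1, chr13:119690101-119690400, + strand: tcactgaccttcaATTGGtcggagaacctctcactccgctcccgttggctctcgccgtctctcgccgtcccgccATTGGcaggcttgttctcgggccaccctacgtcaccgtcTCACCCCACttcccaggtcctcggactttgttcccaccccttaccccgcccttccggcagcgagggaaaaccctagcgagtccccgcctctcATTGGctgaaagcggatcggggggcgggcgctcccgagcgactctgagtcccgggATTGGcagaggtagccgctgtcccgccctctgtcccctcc
Msmo1, chr8:64733529-64733828, − strand: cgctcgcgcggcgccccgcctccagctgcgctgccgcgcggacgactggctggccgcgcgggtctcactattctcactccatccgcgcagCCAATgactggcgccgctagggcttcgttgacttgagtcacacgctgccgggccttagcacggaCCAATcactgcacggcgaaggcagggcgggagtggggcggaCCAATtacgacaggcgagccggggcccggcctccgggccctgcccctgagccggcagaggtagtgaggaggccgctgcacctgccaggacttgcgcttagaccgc
RefSeq windows were matched for 22 of the 28 genes (28 windows). TCACNCCAC was found in 1 of these 28 windows, that of Hmgcs1 (137 bases before its start), and in 1.24% of all 32851 windows. CCAAT was found in 19 of the 28 windows, 1 for each of 19 genes, and in 37.4% of all windows. The Hmgcs1 window holds 4 such boxes, Msmo1 3 and Lss 1, while Pmvk has 1 in its first window only. TGACGTCA, the full cAMP response element, was found in 0 of the 28 windows and in 1.79% of all windows. Its core TGACG, which the full element contains, was found in 9 of the 28 and in 20.8% of all windows. CACGTG, an E-box, was found in 7 of the 28, for 6 genes, and in 7.15% of all. All motifs were searched on both strands, and a match is a description of letters, not of binding. Each search was for the exact letters given, so a window without a match is not shown to lack such an element.

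Insulin raised 5 of the 18 synthesis genes above FD and lowered none of them. Over the 27 genes tested, 6 were higher and 1 lower in FDI than in FD, and of all genes 14.5% were called, 10.2% higher and 4.35% lower. The median log2 change was 0.08 over the 27 and 0.04 over all genes. Median-of-ratios and quantile scaling both gave 5 higher and 2 lower, with Ebp added below FD (adjusted p = 0.0498 under the first, just below the threshold). Of all genes, 7.34% were higher and 6.03% lower under the first, and 6.89% and 5.98% under the second. Msmo1 went from 89.6 ± 6.87 to 138 ± 6.30 TPM (log2 change 0.62 ± 0.07, adjusted p = 9.96e-05), Sqle rose 1.27-fold (log2 change 0.34 ± 0.05, adjusted p = 0.00104) and Fdps 1.27-fold (log2 change 0.34 ± 0.06, adjusted p = 0.00223). Lss rose 1.43-fold (log2 change 0.51 ± 0.12, adjusted p = 0.0169), and this call ended without FD replicate 1, FDI replicate 1 or FDI replicate 3 (adjusted p from 0.0537 to 0.0667). Mvk rose 1.43-fold (adjusted p = 0.0474), but the call ended in 12 of its 16 alternatives, among them both other scalings and each fit without FD replicate 1 or 2 or any FDI replicate (adjusted p from 0.0662 to 0.161 without 1 library). With FD replicates 1 and 2 both left out, 3 of the 27 were called, Sqle, Msmo1 and Insig2. The genes Sc5d, Dhcr7, Hmgcs1 and Fdft1, lowered by forskolin and dexamethasone, were at 97.7 ± 11.9, 21.3 ± 0.535, 58.9 ± 5.86 and 22.0 ± 0.235 TPM with insulin, and none of the 4 passed against FD (adjusted p from 0.103 to 0.825).

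With manganese 3 of the 18 synthesis genes were called. Fdps and Msmo1 were higher and Pmvk lower in FDMn than in FD. Over the 27 genes 3 were higher and 2 lower, against 7.22% and 7.90% of all genes (15.1% in either direction), and the medians were −0.04 and 0.00. Quantile normalization gave 4 and 1 (7.51% and 7.67% of all genes). Fdps measured 142, 138 and 136 TPM in the Mock libraries, 117, 116 and 125 in FD, 165, 146 and 144 in FDI and 203, 209 and 203 in FDMn. Its FDMn libraries were the highest of all 12, above Mock as well as FD and FDI, and the gene rose 1.72-fold over FD (log2 change 0.78 ± 0.06, adjusted p = 9.56e-06). FDPS makes farnesyl diphosphate, the branch point to sterols, dolichol and prenyl groups. Msmo1 rose 1.47-fold (log2 change 0.55 ± 0.07, adjusted p = 0.00029). Sc5d lay at the threshold (log2 change 0.25 ± 0.08, adjusted p = 0.0502) and passed with median-of-ratios scaling (adjusted p = 0.041). Sqle was at 92.4 ± 3.03 against 91.0 ± 0.891 TPM (adjusted p = 0.825), and Lss at 29.2 ± 2.02 against 34.3 ± 4.02 (adjusted p = 0.257).

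The direct comparison of manganese with insulin tested whether the 2 additions differed. Between FDMn and FDI, 5 synthesis genes were lower and 1 higher with manganese. Over the 27 genes 6 were lower and 3 higher, against 11.9% and 5.68% of all genes (17.6% in either direction), and the medians were −0.05 and −0.04. Quantile normalization gave 4 lower and 4 higher (7.87% and 7.40% of all genes). Lss was at 29.2 ± 2.02 TPM in FDMn and 49.0 ± 1.36 in FDI (log2 change −0.73 ± 0.12, adjusted p = 0.00175), and Sqle at 92.4 ± 3.03 and 116 ± 5.42 (log2 change −0.32 ± 0.05, adjusted p = 0.00135). Fdps was 1.35-fold higher (log2 change 0.44 ± 0.06, adjusted p = 0.000363). Idi1 measured 35.9, 34.3 and 30.9 TPM in the Mock libraries, 30.0, 26.9 and 28.3 in FD, 30.0, 31.4 and 30.4 in FDI and 24.0, 27.1 and 23.4 in FDMn, and its highest FDMn library lay below its lowest FDI library (log2 change −0.29 ± 0.08, adjusted p = 0.0233). The Idi1 call ended with quantile normalization (adjusted p = 0.0644) and without FDI replicate 2 or 3 or FDMn replicate 1 or 3 (0.0577 to 0.0905). Dhcr7 (adjusted p = 0.032) lost its call under either other scaling (0.074 and 0.0988) and without any single FDI or FDMn replicate (0.0597 to 0.0949). Msmo1, raised over FD by both, was at 131 ± 4.32 and 138 ± 6.30 TPM, and the difference did not pass (log2 change −0.07 ± 0.07, adjusted p = 0.527). These comparisons share the FD or FDI libraries and are not independent of each other.

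**Figure D2:**
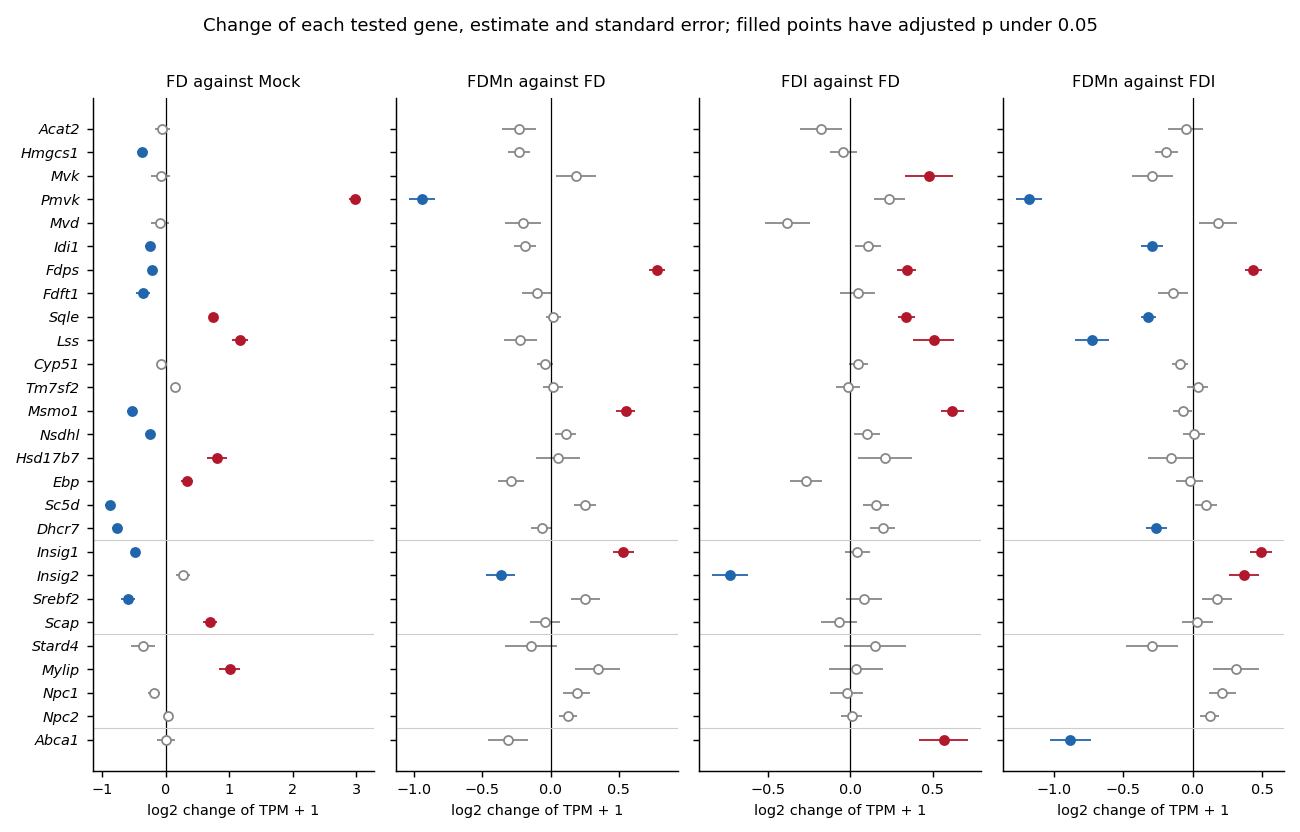
Log2 change of TPM + 1 (horizontal axes, each with its own range) with standard error for the 27 genes tested, in 4 comparisons; grey lines part synthesis, SREBP2 control, uptake and transport, and export. Filled red points were higher and filled blue points lower at adjusted p under 0.05; Pmvk has the largest change in FD against Mock (2.99) and falls with manganese.

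Summed over the 18 synthesis genes, the mean level in TPM was 878 ± 17.1 in Mock, 937 ± 5.06 in FD, 1106.8 ± 3.05 in FDI, 963 ± 34.5 in FDMn. Without Pmvk the sum was 855 ± 15.1 in Mock, 747 ± 5.15 in FD, 882 ± 24.8 in FDI, 864 ± 24.7 in FDMn. On TPM the FD sum thus stood above Mock with Pmvk and below it without. The median of all genes was also lower in FD on TPM (log2 change −0.15), and was −0.01 after median-of-ratios scaling. The sums were not rescaled, so they do not show that the genes other than Pmvk fell as a set. Pmvk was 2.64% of the summed level in Mock, 20.3% in FD, 20.3% in FDI and 10.2% in FDMn. Among the 18 genes it ranked 12 by mean TPM in Mock and 1 in FD and FDI, while Sc5d ranked 1 in Mock and Fdps in FDMn. TPM is scaled by transcript length, so levels of different genes can be set side by side.

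**Figure D3:**
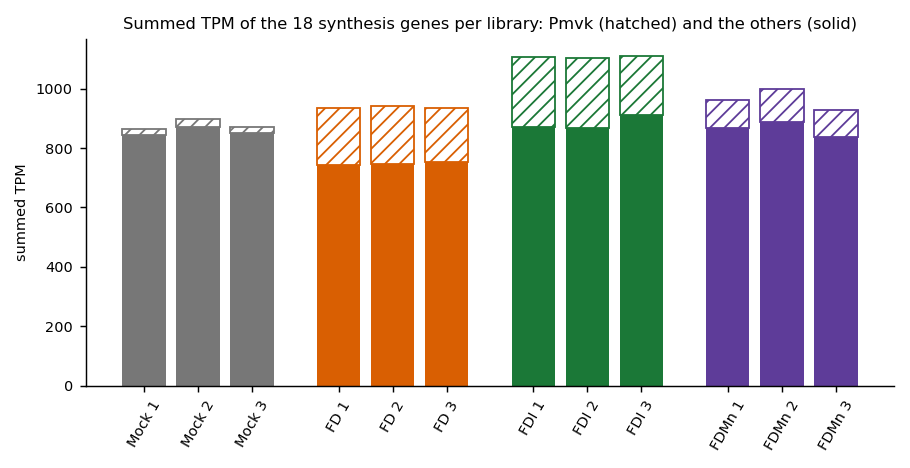
Summed TPM of the 18 synthesis genes in each of the 12 libraries (vertical axis from 0), with the hatched part Pmvk and the solid part the other 17. The hatched part is small in Mock, and the solid part is lowest in the 3 FD libraries (744 to 753), on TPM without further scaling.

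Of the 4 SREBP2 control genes, Scap rose and Srebf2 and Insig1 fell with forskolin and dexamethasone. Srebf2 measured 54.1, 57.9 and 53.7 TPM in the Mock libraries, 33.5, 37.6 and 38.2 in FD, 33.7, 36.4 and 46.8 in FDI and 46.8, 40.0 and 44.3 in FDMn. It fell by 0.59 ± 0.11 on the log2 scale in FD (adjusted p = 0.000982), and all 3 Mock libraries lay above every other library. Neither addition passed the test against FD for Srebf2 (adjusted p = 0.138 for manganese and 0.668 for insulin). Scap, the escort of SREBP, rose 1.63-fold from 64.6 ± 8.48 to 105 ± 8.82 TPM (log2 change 0.70 ± 0.11, adjusted p = 0.000313) and was at 100.3 ± 8.74 with insulin and 103 ± 11.8 with manganese.

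The 2 retention proteins had different patterns. Insig1 measured 34.1, 31.7 and 34.8 TPM in the Mock libraries, 23.2, 24.3 and 23.9 in FD, 23.7, 25.0 and 25.1 in FDI and 36.0, 37.9 and 31.3 in FDMn. Its level was low in FD and FDI and high in Mock and FDMn, with no library of the first pair reaching the second. Insig1 fell by 0.47 ± 0.08 in FD (adjusted p = 0.000372) and rose with manganese (log2 change 0.53 ± 0.08, adjusted p = 0.000704), while insulin left it at 24.6 ± 0.787 TPM (log2 change 0.04 ± 0.08, adjusted p = 0.757). FDMn and FDI differed (log2 change 0.49 ± 0.08, adjusted p = 0.00106), and FDMn against Mock did not pass (log2 change 0.06 ± 0.08, adjusted p = 0.572), except with median-of-ratios scaling (adjusted p = 0.0393).

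Insig2 measured 93.9, 75.5 and 94.3 TPM in the Mock libraries, 107, 115 and 97.8 in FD, 69.4, 61.2 and 60.5 in FDI and 76.0, 94.7 and 77.2 in FDMn. Here the FDI libraries were the lowest of the 12, and the FD libraries the highest. Insulin lowered it (log2 change −0.73 ± 0.11, adjusted p = 0.000859). The rise in FD did not pass on TPM (log2 change 0.28 ± 0.11, adjusted p = 0.0576) and did after median-of-ratios scaling (0.44, adjusted p = 0.00765). Manganese lowered it by 0.37 ± 0.11 (adjusted p = 0.0399), but this call ended in 10 of its 16 alternatives, among them the fits without FD replicate 1 or 2 or FDMn replicate 1 or 3 (adjusted p from 0.0944 to 0.142). FDMn was above FDI (log2 change 0.37 ± 0.11, adjusted p = 0.0355), a call that ended without FDI replicate 2 or 3 or FDMn replicate 2 or 3 (0.0531 to 0.139). The TPM value does not separate the Insig2 transcripts.

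Among the uptake and transport genes only Mylip was called in FD against Mock. It passed the filter only through the treated groups, so that call is not support for a change. Npc2 was also called under median-of-ratios scaling (0.19, adjusted p = 0.0362). Mylip encodes the ubiquitin ligase IDOL, which marks lipoprotein receptors for degradation. It measured 0.140, 0.140 and 0.0327 TPM in the Mock libraries, 1.36, 1.53 and 0.847 in FD, 1.47, 1.24 and 1.15 in FDI and 1.51, 2.09 and 1.93 in FDMn. All 9 libraries with forskolin and dexamethasone were above all Mock libraries, which stayed near 0. The log2 change in FD against Mock was 1.01 ± 0.17 with a pseudocount of 1 and 2.74 with 0.1, since the level is low. Passing the filter already required a difference for this gene, so no p-value is given. Against FD, neither manganese (adjusted p = 0.186) nor insulin (0.912) passed. Npc1 was at 34.3 ± 3.22, 30.1 ± 2.25, 29.7 ± 3.57 and 34.5 ± 2.24 TPM in Mock, FD, FDI and FDMn, and Npc2 at 38.8 ± 1.85, 39.7 ± 1.17, 40.0 ± 2.02 and 43.6 ± 2.36. Stard4 was at 7.25 ± 1.01, 5.53 ± 1.73, 6.12 ± 0.631 and 4.87 ± 1.15 TPM. None of these 3 passed on TPM in FD against Mock, or in FDMn or FDI against FD, with all libraries. Stard4 was called lower in FD without FD replicate 2 (adjusted p = 0.0234). In FDMn against Mock, Npc2 did not pass on TPM (adjusted p = 0.0658). It was higher there with median-of-ratios scaling (0.32, adjusted p = 0.00226) and quantile normalization (0.31, adjusted p = 0.00231). Npc2 also passed in FDMn against FDI with quantile normalization (0.21, adjusted p = 0.0473; 0.242 on TPM).

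The exporter gene Abca1 was highest with insulin. It measured 8.77, 11.3 and 15.0 TPM in the Mock libraries, 12.2, 11.6 and 10.7 in FD, 16.4, 18.6 and 17.7 in FDI and 8.78, 10.1 and 8.39 in FDMn. Every FDI library was above every other library, and the 3 FDMn libraries were below all FD libraries. FDI was 1.52-fold FD (log2 change 0.57 ± 0.15, adjusted p = 0.0241), a call that ended without FD replicate 2 or 3 or FDI replicate 2 or 3 (adjusted p from 0.0547 to 0.0781) and with no filter on low values (0.0633). The direct comparison put FDMn below FDI (log2 change −0.88 ± 0.15, adjusted p = 0.00173), and FDMn against FD did not pass (log2 change −0.31 ± 0.15, adjusted p = 0.183). FD and Mock overlapped (adjusted p = 0.975). Macrophages also express Abca1 and Abcg1. The summed macrophage markers given above were highest in FDMn, where mean Abca1 was lowest. Mean Abcg1, near 0 in every group, was highest there (0.132, 0.161, 0.107 and 0.377 TPM in Mock, FD, FDI and FDMn). The part of macrophages in these values was not tested. Abcg1 did not pass the filter. Its libraries read 0.183, 0.0553 and 0.156 TPM in Mock, 0, 0.025 and 0.457 in FD, 0.0946, 0.102 and 0.126 in FDI and 0.139, 0.248 and 0.743 in FDMn, where 0 means that it is listed at 0. No test was made for Abcg1.

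**Figure D4:**
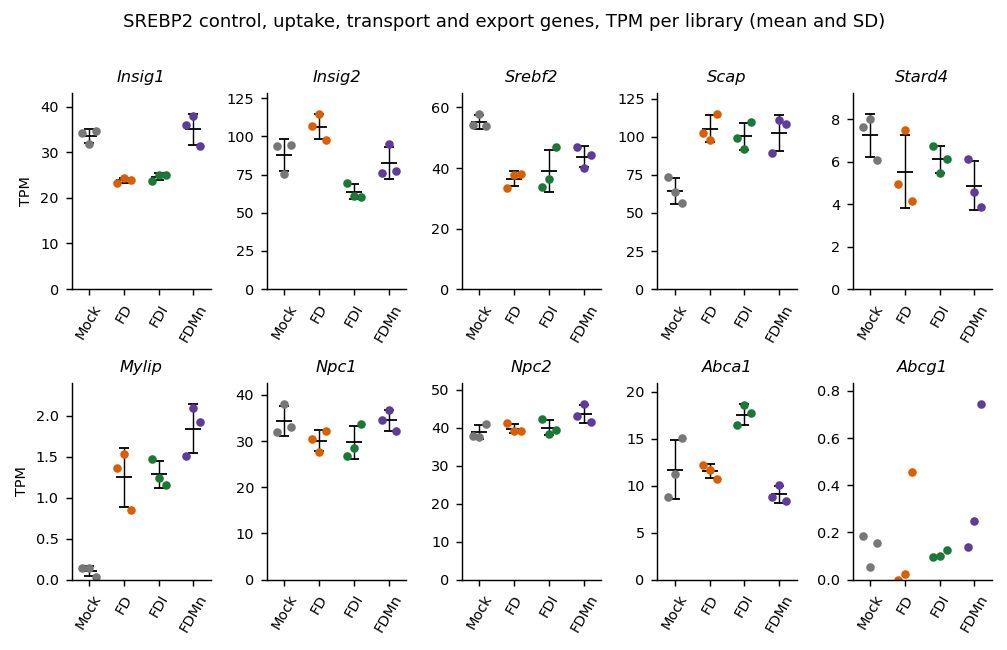
Deposited TPM (vertical axes, each from 0) of the 10 control, uptake, transport and export genes by group; points are libraries, bars the mean and SD of 3 (points only for Abcg1, which is listed at 0 in 1 library). Insig1 is low in FD and FDI, Insig2 is lowest in FDI, Abca1 is highest in FDI, and Mylip is near 0 in Mock.

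Set against Mock, both groups with an addition had genes called in each direction. In FDMn 14 of the 27 genes were called, 7 higher and 7 lower, against 42.7% of all genes (12.04% higher and 30.62% lower). With median-of-ratios scaling 10 were higher and 5 lower (18.44% and 17.48% of all genes). With quantile normalization the counts were 9 and 5 (17.07% and 20.045% of all genes). In FDI 16 were called, 8 higher and 8 lower, against 38.3% of all genes (12.9% higher and 25.4% lower). Median-of-ratios scaling gave 11 and 7 there (18.7% and 17.3% of all genes), and quantile normalization 9 and 6 (15.9% and 19.6%). Pmvk (2.04 ± 0.09 in FDMn and 3.22 ± 0.09 in FDI), Sqle (0.77 ± 0.05 and 1.09 ± 0.05), Lss (0.96 ± 0.12 and 1.68 ± 0.12), Hsd17b7 (0.87 ± 0.16 and 1.02 ± 0.16) and Scap (0.66 ± 0.11 and 0.63 ± 0.11) were above Mock in both, as log2 changes. Both counts of higher genes also hold Mylip, which had to differ from Mock to pass the filter. Sc5d (−0.62 ± 0.08 and −0.71 ± 0.08), Dhcr7 (−0.83 ± 0.08 and −0.57 ± 0.08) and Hmgcs1 (−0.60 ± 0.08 and −0.41 ± 0.08) were below it in both. Fdps was above Mock in FDMn (log2 change 0.56 ± 0.06, adjusted p = 1.07e-05) and did not pass in FDI (log2 change 0.13 ± 0.06, adjusted p = 0.108) on TPM, though it did with median-of-ratios scaling (adjusted p = 0.00816). Msmo1 did not pass in either (adjusted p = 0.852 and 0.328), and passed in FDI with that scaling (0.0353). Abca1 was above Mock in FDI (log2 change 0.58 ± 0.15, adjusted p = 0.00916). Some calls near the threshold ended when 1 library was left out: Srebf2 (adjusted p = 0.0263; without Mock replicate 1 or 2 or FDMn replicate 2 or 3, 0.0506 to 0.101) and Stard4 (adjusted p = 0.0496; the same 4 libraries, 0.117 to 0.178) in FDMn, and Mvk (adjusted p = 0.0479; any of the 6, 0.0529 to 0.175), Fdft1 (adjusted p = 0.036; any of the 6, 0.0728 to 0.0844) and Mvd (adjusted p = 0.0164; Mock replicate 2 or FDI replicate 2 or 3, 0.0608 to 0.0657) in FDI. The Srebf2, Stard4 and Fdft1 calls ended under both other scalings and the Mvd call with quantile normalization.

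A further 42 genes chosen around sterol metabolism were listed as company for the 28, and 40 passed the filter. Not all of them act on sterols: the list also holds Cnbp and the fatty acid desaturases Fads1 and Fads2. In FD against Mock 5 of the 40 rose and 13 fell, or 45.0% called against 41.1% of all genes (11.2% higher and 29.9% lower), and with median-of-ratios scaling 11 and 7 (17.8% and 17.2% of all genes). The 5 include Abcg5 and Abcg8, which passed the filter only through the treated groups. Stard5, a sterol carrier, rose 2.20-fold (log2 change 1.10 ± 0.09, adjusted p = 1.48e-06). Soat2, which esterifies cholesterol, fell from 17.9 ± 2.73 to 6.97 ± 1.25 TPM (adjusted p = 1.95e-05). Erlin2, which takes part in sterol-driven protein turnover, and Cnbp, a nucleic-acid-binding protein, also fell (adjusted p = 4.37e-05 and 2.68e-05). With manganese 4 of the 40 were higher and 7 lower than FD, where 7.22% and 7.90% of all genes were. Soat2 rose 2.66-fold to 18.5 ± 2.12 TPM (adjusted p = 9.63e-05), and Gramd1c, a sterol transfer protein, rose 2.04-fold (adjusted p = 0.00111). Fads2, a fatty acid desaturase, fell by 0.32 ± 0.04 (adjusted p = 0.000559).

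With insulin 5 of the 40 were higher and 4 lower than FD, where 10.2% and 4.35% of all genes were (4 and 6 with median-of-ratios scaling, and 7.34% and 6.03% of all genes). Soat2 rose 2.01-fold (adjusted p = 0.00096), Stard5 1.62-fold (adjusted p = 0.000392) and Cnbp 1.35-fold (adjusted p = 0.000139), and Lipa, the lysosomal lipase that frees cholesterol from its esters, went from 75.1 ± 6.10 to 55.4 ± 2.84 TPM (adjusted p = 0.0027). In the direct comparison 1 was higher and 5 lower in FDMn than in FDI, or 15.0% called against 17.6% of all genes (5.68% higher and 11.9% lower). The lower genes included Fads2 (log2 change −0.56 ± 0.04, adjusted p = 8.81e-06) and Cnbp (log2 change −0.50 ± 0.05, adjusted p = 4.65e-05), and the higher gene was Gramd1c (log2 change 0.56 ± 0.13, adjusted p = 0.0117). Against Mock, Stard5 was 3.22-fold in FDMn and 3.55-fold in FDI, and Mbtps1, the protease that first cuts SREBP, was lower in both (log2 changes −0.65 ± 0.06 and −0.39 ± 0.06). The paired exporters Abcg5 and Abcg8, which pass sterols into bile, were picked after their values were seen. Abcg5 was at 0.839 ± 0.216, 2.90 ± 0.137, 1.57 ± 0.368 and 1.41 ± 0.0908 TPM in Mock, FD, FDI and FDMn, and Abcg8 at 0.793 ± 0.428, 2.95 ± 0.340, 1.07 ± 0.131 and 1.57 ± 0.586. For each gene 1 of the 3 Mock libraries reached 1 TPM, and the mean was highest in FD and lower in both FDI and FDMn. Both genes are in the counts above, among those higher in FD than in Mock and those lower in FDI than in FD. Abcg5 is also among those lower in FDMn than in FD. No separate test is given for a pattern the genes were picked for.

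Several of the 28 genes overlap another protein-coding gene, and whether strand was used in the authors' quantification is not given in the sources used here. On the opposite strand Fdft1 overlaps Ctsb (324.7 TPM in Mock and 415.4 in FDMn on average), Mvd overlaps Gm20388, Cyp51 overlaps Akap9 and Npc1 overlaps Rmc1, while Tm7sf2 overlaps Vps51 and Fdps overlaps Gm43738 on their own strand. Reads of such pairs cannot be told apart where the genes share sequence. On GRCm38 (GENCODE M21) Pmvk lies on chromosome 3 (89454541 to 89469013), Insig1 on chromosome 5 (28071363 to 28078662), Insig2 on chromosome 1 (121304353 to 121332589) and Abca1 on chromosome 4 (53030787 to 53159895), and all 28 genes are annotated as protein-coding.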

How the data were processed

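The authors deposited 1 table of gene-level TPM for 12 poly-A RNA libraries. The submitters' processing notes name kallisto 0.44.0 and GRCm38.p6. The annotation, filters, strand setting and step from transcripts to genes were not given in the sources used here. Each column sums to about 1000000, so a value is a share of a library, and TPM keeps no read number: depth is unknown and no counting interval is given. Columns were matched to samples by library name, and groups and replicate numbers came from the titles; 0 sample columns were left unused.

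Genes with at least 1 TPM in at least 3 libraries were kept (11544), and log2(TPM + 1) was fitted with 1 term per group over all 12 libraries in limma 3.58.1 (R 4.3.3, trended prior), two-sided, with Benjamini-Hochberg adjustment over all genes and a threshold of 0.05. The fit was tested on simulated data. An exact permutation test of 3 against 3 libraries cannot go below p = 0.1 and was not used. The 28 genes, the further 42 genes and the marker lists were chosen with earlier results of these data known. All 28 are named; values in every library are given for Insig1, Insig2, Srebf2, Abca1, Abcg1 and, per comparison, up to 5 further genes past the threshold with the largest log2 change. Of the further genes, up to 4 per comparison with the smallest adjusted p are named, except 1 that is not reported here. Alternatives were other pseudocounts (0.1 and 0.5), filters (none, or 5 TPM in 3 libraries), scalings, a fit of 2 groups, no trend, a replicate block and each replicate left out.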

Additional observations from a re-analysis of the deposited data

How the results depend on the processing

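The number of the 27 genes called stayed within 1.5 times its value under every alternative run for FD against Mock (17), FDMn against FD (5), FDMn against FDI (9), FDMn against Mock (14) and FDI against Mock (16). For FDI against FD (7) it dropped to 4 without FDI replicate 3 and to 3 with FD replicates 1 and 2 both left out, an alternative chosen after seeing the data that assumes the lone FD library varies like the other groups. With single replicates left out the counts ranged from 14 to 17 in FD against Mock, 4 to 6 in FDMn against FD, 4 to 6 in FDI against FD, 6 to 9 in FDMn against FDI, 12 to 15 in FDMn against Mock and 13 to 15 in FDI against Mock. Of 68 gene results past the threshold, 49 stayed past it with the same sign under every alternative run, and no call changed sign; 22 others passed under at least 1. Pseudocounts of 0.1 and 0.5 changed no call. The stricter filter removed Mylip and Mvd, so neither has a value there.

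The replicate numbers did not pair the libraries: deviations from the group means of same-numbered libraries correlated between −0.0976 and 0.0684. With the replicate block the counts were 17, 4, 7, 7, 14 and 14 in the order FD against Mock, FDMn against FD, FDI against FD, FDMn against FDI, FDMn against Mock and FDI against Mock. Read depth is unknown, so how far it limits Mylip and Abcg1, the genes of lowest level, cannot be given.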
